A study of Mus musculus with 6 samples.

Results

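The Notch receptors Notch1, Notch2, Notch3 and Notch4, their ligands Dll1, Jag1 and Jag2, the DNA-binding factor Rbpj and the target genes Hes1 and Hey1 were followed in sorted mouse melanocyte stem cells. They were chosen by name, through the RefSeq accession of each array probe, and make up 10 of the 21368 genes to which probes could be matched, and 13 of the 55681 non-control probes. Samples came from K14-SCF Tg mice, which carry a transgene for stem cell factor (SCF, gene Kitl) under the keratin 14 promoter, and from WT mice, with 3 samples of each genotype and 1 array per sample. All mice were male, and in both genotypes green-fluorescent skin cells of low side scatter were taken as the stem cells. The labels give no age and do not say what drives the fluorescence. The keratin 14 promoter is known to be active in basal epidermal cells, so the transgene would act on the sorted cells from their neighbours. That route was not measured here. The labels number the samples but do not tie them to separate mice, and a p-value here covers sample-to-sample spread alone, part of which may be technical.

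Notch signalling passes between touching cells. A Delta or Jagged ligand on one cell binds a Notch receptor on the next, the receptor is cut by an ADAM protease and then by gamma-secretase, and its freed intracellular part enters the nucleus. There it joins RBPJ and a Mastermind co-activator and turns on genes such as Hes1 and Hey1, whose products are basic helix-loop-helix repressors. In the mouse pigment lineage, loss of Notch1 and Notch2, or of Rbpj, is known to deplete melanocyte stem cells and to cause early greying, and Hes1 is known to protect melanoblasts from cell death.

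Levels are log2 of a probe's processed signal over the 75th percentile of its array, so that 0 is the 75th percentile. They compare samples for 1 probe and do not rank one gene above another. Summed signals over a list, used below, likewise compare samples only. A gene's share of such a sum is the share of its probe's signal, not of RNA or of cells. Well above background is the scanner software's flag for a spot clearly brighter than its surroundings. It was carried by 46742 to 48532 probes on the Tg arrays and 43655 to 47831 on the WT arrays, and no spot was saturated. Of the 12 melanocyte markers, 11 were well above background on all 6 arrays, among them Dct and Tyrp1, enzymes of melanin synthesis, and Kit, the SCF receptor, at 3.87, 4.10 and 3.44 on the Tg arrays against 4.35, 4.47 and 3.97 on the WT arrays. Oca2, a melanosome membrane protein, was well above background on 0 arrays. Kitl itself had a log2 fold change of 0.37 (SE 1.31), which was -0.26 within the shared slide. It read -2.73, -2.28 and 0.48 in Tg and -3.13, -3.06 and 0.55 in WT, with replicate 3 far the highest in both genotypes. The Kitl probe checks the sorted cells, not the epidermis where the transgene is driven. The array of WT replicate 1 was the only one on its slide, while the other 5 shared a slide. Each log2 fold change is the Tg mean less the WT mean. The value within the shared slide, given beside those of the Notch genes and of the named pathway genes, equals that of a fit with slide as a block and of one without WT replicate 1.

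All 10 Notch genes were detected: each of the 13 probes was well above background on 3 of 3 Tg arrays and 3 of 3 WT arrays. None of the 10 genes passed the test between genotypes, which was limma's moderated test with Benjamini-Hochberg adjustment over 47726 probes and a threshold of 0.05. Of the 18381 genes tested, 1 was called higher in Tg (0.00544%) and 0 lower (0%). At an unadjusted p under 0.05 limma counted 0 of the 10 Notch genes, against 995 of all genes (5.41%). Log2 fold changes were negative for 8 Notch genes and positive for 2, with a median of -0.17, while over all tested genes 51.4% were negative and the median was -0.01. The genotypes did not overlap in 1 of the 10, against 10.5% of all genes tested. Because these were bulk samples, fewer cells of a type and less RNA per cell cannot be told apart in any of these values.

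**Figure D1:**
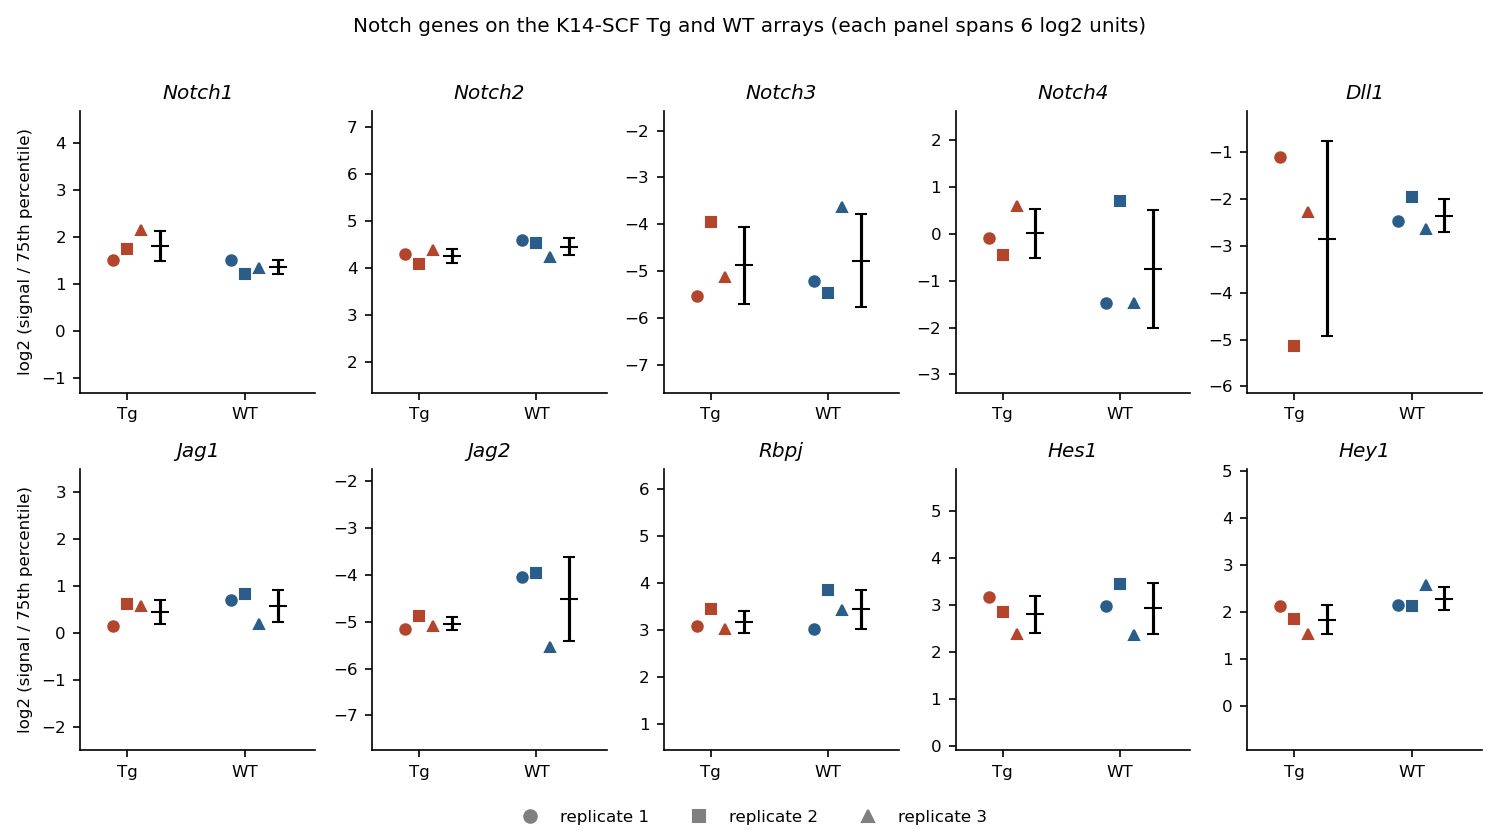
Levels of the 10 Notch genes (log2 of signal over the array's 75th percentile, y axis) on the 3 K14-SCF Tg arrays (left, red) and the 3 WT arrays (right, blue), with the mean ± SD beside the points and a symbol for each replicate number. Every panel spans the same range, so the wide scatter of Dll1, Notch3 and Notch4 can be set against the narrow one of Notch2 and Notch1.

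Among the receptors, Notch1 was the 1 member whose genotypes did not overlap, with Tg higher, as in 5.12% of all tested genes. It stood at 1.52, 1.75 and 2.16 on the Tg arrays, against 1.51, 1.21 and 1.35 on the WT arrays. The lowest Tg array and the highest WT array were nearly level. The log2 fold change was 0.45 (SE 0.26, 95% interval -0.19 to 1.09, 0.53 within the shared slide) and did not pass (limma, adjusted p = 0.949). The second Notch1 probe did not show the same separation: it read 1.92, 1.27 and 1.23 in Tg and 1.61, 1.20 and 1.77 in WT, a log2 fold change of -0.05 (SE 0.30, -0.01 within the shared slide). Notch1 was the 1 gene among the 3 Notch genes with 2 probes whose probes disagreed in sign. Over all 4858 genes with several tested probes, the probes disagreed in 45.2%.

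Notch2, the receptor that acts with Notch1 in the pigment lineage, had the smallest spread between replicates of the 10. Its brighter probe read 4.30, 4.09 and 4.38 in Tg and 4.61, 4.53 and 4.24 in WT. The lowest WT array lay below 2 of the 3 Tg arrays, and the means were 4.26 ± 0.15 in Tg and 4.46 ± 0.19 in WT (SD, n = 3 each). The log2 fold change of -0.21 (SE 0.23, -0.13 within the shared slide) had a 95% interval of -0.76 to 0.35, narrower than that of any other member, and did not pass (limma, adjusted p = 0.988). The other Notch2 probe had the same sign, at -0.45 (SE 0.28, -0.41 within the shared slide), with -0.85, -0.87 and -0.36 in Tg and -0.14, -0.56 and -0.01 in WT. At both Notch2 probes the genotypes overlapped.

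Notch3, the receptor best known from pericytes and vascular smooth muscle, was dim and split within both genotypes. It read -5.54, -3.95 and -5.13 in Tg and -5.22, -5.46 and -3.64 in WT. Tg replicate 2 and WT replicate 3 stood above the other 4 arrays, so the spread lay inside the genotypes and not between them (log2 fold change -0.10, SE 0.64, -0.32 within the shared slide, limma adjusted p = 1.00). All 9 markers of pericytes and smooth muscle were measured, 8 of them above background on all 6 arrays. Their summed signal over the 75th percentile was 101 to 109 in Tg and 99.0 to 118 in WT, and 93.8% of it came from the 1 gene Mcam. That share rests on 1 Mcam probe, at 6.52 to 6.80 over the 6 arrays, while the other Mcam probe lay between -2.88 and -0.15. Without Mcam the sum was 6.03 to 9.30 in Tg and 4.86 to 6.96 in WT. Rgs5, a pericyte marker, read -6.86, -2.73 and -8.34 in Tg and -0.82, -3.26 and -2.37 in WT, above background on 1 Tg array and 3 WT arrays. Pdgfrb, a growth factor receptor of pericytes, read -1.96, -2.62 and -4.36 in Tg and -3.66, -1.29 and -5.31 in WT. The muscle filament gene Des, chosen after its values were seen, stood at 0.67 on Tg replicate 2 and between -3.92 and -2.41 on the other 5 arrays. On WT replicate 3, where Notch3 was highest, Des was at -3.75. Of the remaining markers, Acta2, Myh11 and Cspg4 were highest on Tg replicate 2. Cnn1 and the brighter Mcam probe were highest on WT replicate 3, and Tagln on Tg replicate 3. The part of such cells in the Notch3 values was not tested.

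Notch4, a receptor known mainly from endothelium, had the largest log2 fold change of the members, at 0.76 (SE 0.67, 95% interval -0.89 to 2.42), and did not pass (limma, adjusted p = 0.984). Its levels were -0.09, -0.45 and 0.58 in Tg against -1.47, 0.70 and -1.47 in WT. WT replicate 2 was the highest of all 6 arrays, and the other 2 WT arrays were the lowest. Within the shared slide the value was 0.40, and without WT replicate 2 it was 1.49, also not called (adjusted p = 0.618). All 12 endothelial markers were measured, 9 of them above background on all 6 arrays. Their summed signal was 4.15 to 5.13 in Tg and 4.10 to 7.79 in WT, with a median log2 fold change of -0.43 and 0 called. Pecam1, an adhesion molecule of endothelium, read -3.69, -2.63 and -3.48 in Tg and -3.49, -4.67 and 0.38 in WT, with WT replicate 3 the highest array. Other markers of the list, named after their values were seen, differed in their highest array. It was WT replicate 2, as for Notch4, for the co-receptor Eng (1.43), the growth factor receptor Kdr (0.95) and the receptor Tie1 (-2.64). Kdr was nearly flat at this probe (0.59 to 0.95), and its other probe was highest on WT replicate 3. Tie1 was above background on 2 Tg arrays and 1 WT array. Egfl7, Vwf, Esam and Cldn5 were highest on WT replicate 3, like Pecam1. Cdh5, Flt1, Tek and Emcn were highest on a Tg array. Cdh5, the endothelial cadherin, was above background on 1 Tg array and 3 WT arrays (-7.82, -3.10 and -6.96 in Tg, -4.91, -4.36 and -3.26 in WT). The part of endothelial cells in the Notch4 values was not tested.

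**Figure D2:**
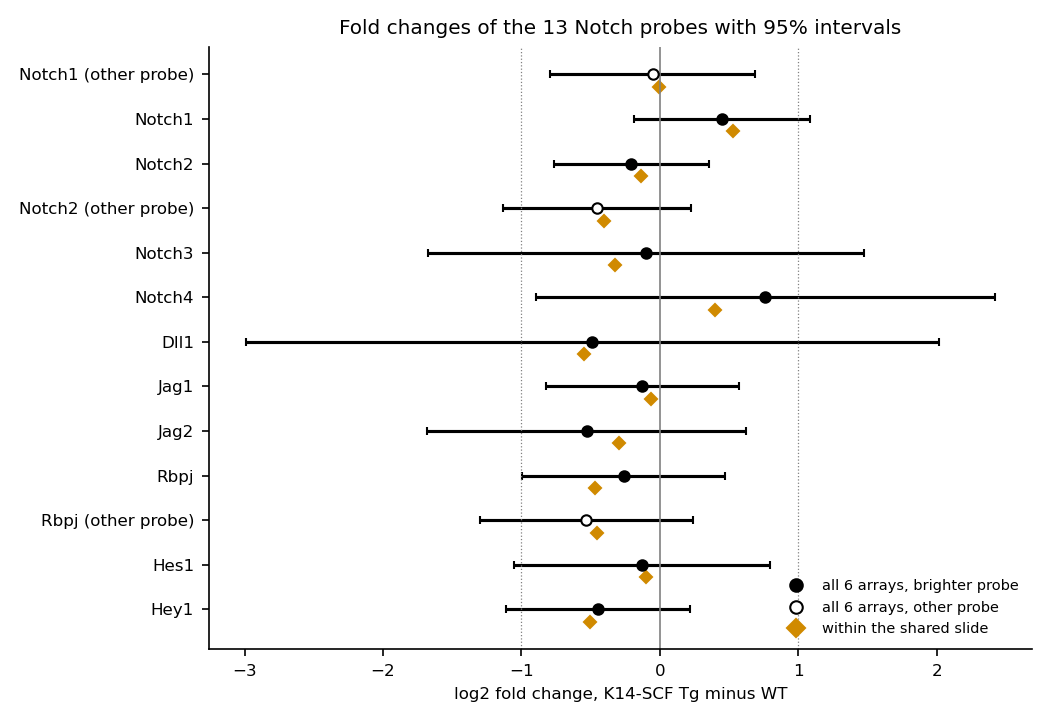
Log2 fold changes (K14-SCF Tg minus WT, x axis) of the 13 Notch probes from all 6 arrays, with 95% intervals (black), and the values within the shared slide (orange). Dotted lines mark a 2-fold change either way; every interval includes 0, and those of Dll1, Notch4 and Notch3 are the widest.

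Of the ligands, Dll1, a Delta-type ligand, had the widest interval, because 1 Tg array stood far below the rest. Its levels were -1.11, -5.15 and -2.28 in Tg, against -2.47, -1.96 and -2.64 in WT. The highest and the lowest of the 6 arrays were both Tg, and the SD was 2.08 in Tg and 0.36 in WT (n = 3 each). The Dll1 probe is printed 10 times on each array, which separates the spot-to-spot error from the spread between samples. The SD over spots of an array was 0.06 to 0.34 in Tg and 0.07 to 0.13 in WT, with 1 spot of WT replicate 3 left out as an outlier. On Tg replicate 2 the 10 spots ran from -5.72 to -4.74 and all 10 were above background, so the low value did not come from a single spot. The log2 fold change was -0.49 (SE 1.02, 95% interval -2.99 to 2.01, -0.54 within the shared slide, limma adjusted p = 0.998). It was 0.66 without Tg replicate 2 and -1.35 without Tg replicate 1.

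**Figure D3:**
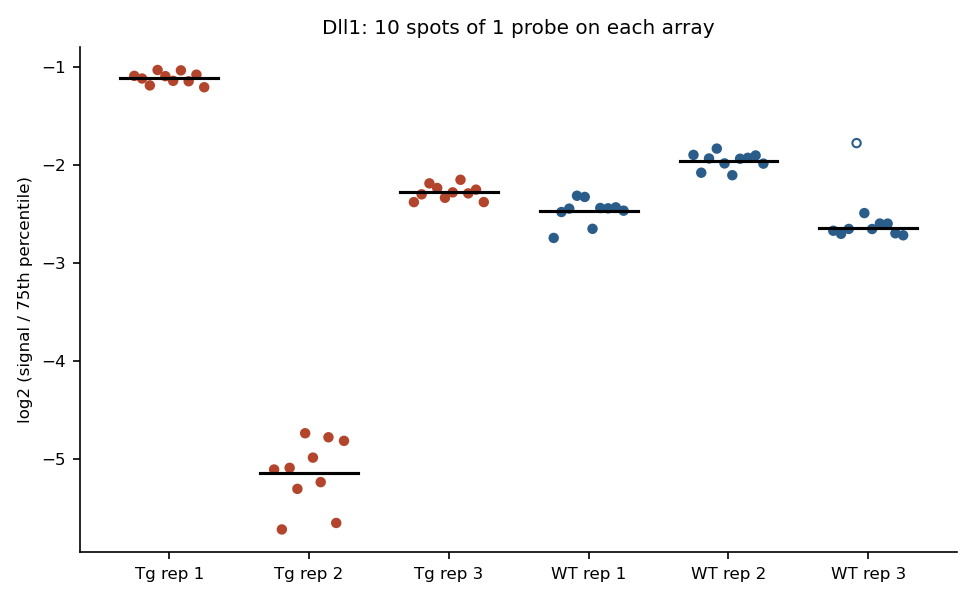
Level of each of the 10 Dll1 spots (log2 of signal over the array's 75th percentile, y axis) on the 3 K14-SCF Tg arrays (red, left) and the 3 WT arrays (blue, right), with the mean of the retained spots as a line and an outlier spot drawn as an open circle. Spots of 1 array lie close together, and the spots of Tg replicate 2 lie below those of every other array.

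Jag1, the Jagged ligand that keratinocytes and many other cells carry, differed little between the genotypes. It read 0.15, 0.61 and 0.57 in Tg and 0.70, 0.84 and 0.18 in WT, with a log2 fold change of -0.12 (SE 0.28, 95% interval -0.82 to 0.57, -0.06 within the shared slide, limma adjusted p = 0.999). Both genotypes covered nearly the same range. Jag2, the second Jagged ligand, was dim and stood close together in Tg, at -5.15, -4.89 and -5.10, while the WT arrays read -4.06, -3.95 and -5.54. Of these, 2 WT arrays lay above and 1 below all Tg arrays. The log2 fold change was -0.53 (SE 0.47, 95% interval -1.68 to 0.62, -0.30 within the shared slide) and did not pass (limma, adjusted p = 0.984). Without WT replicate 3 it was -1.04, still not called (adjusted p = 0.637).

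Keratinocytes are known to make both Jagged ligands. All 12 keratinocyte markers were measured, with 0 called, and 9 were above background on all 6 arrays. Their summed signal was 134 to 145 in Tg and 115 to 146 in WT, of which 92.9% came from the 1 gene Trp63. That share rests on 1 Trp63 probe, at 6.76 to 7.14 over the 6 arrays. The other Trp63 probe lay between -8.83 and -4.54, above background on 1 Tg array and 2 WT arrays. Without Trp63 the sum was 4.78 to 13.0 in Tg and 5.31 to 19.4 in WT. The keratin Krt14 read 2.52, 0.51 and 2.12 in Tg and 0.60, 3.28 and 0.86 in WT, and its partner Krt5 read 0.69, -0.39 and -0.02 in Tg and 0.50, 0.69 and 0.16 in WT. The genotypes did not overlap in 1 of the 12 (8.33%), against 10.5% of all tested genes. This was the dim keratin Krt17, named after its values were seen, above background on 3 Tg arrays and 2 WT arrays. It read -2.86, -4.25 and -1.44 in Tg and -4.61, -5.06 and -5.43 in WT (log2 fold change 2.18, SE 0.72, limma adjusted p = 0.845). Fibroblast markers were mostly lower in Tg: 8 of 10 had negative log2 fold changes (median -1.66), although 0 were called. The other 2 were positive, Pdgfra at 1.27 (SE 0.99) and Fap at 2.19 (SE 0.91). The genotypes did not overlap in 5 of the 10 fibroblast markers (50%), against 10.5% of all tested genes. These 5 were named after their values were seen. In Col1a2, Col3a1, Col5a1 and Thy1 all Tg arrays lay below all WT arrays, and in Fap all Tg arrays lay above. At an unadjusted p under 0.05 limma counted 5 of the 10, against 5.41% of all tested genes. The summed signal of the 10 fibroblast markers was 11.4 to 23.2 in Tg and 29.3 to 74.5 in WT, without overlap. Of this sum, 47.0% came from the 1 gene Col1a2. Without Col1a2 the sum was 6.35 to 12.2 in Tg and 16.2 to 39.6 in WT. Col1a1, a collagen chain, read 2.60, 1.21 and 0.41 in Tg and 4.01, 3.36 and 2.33 in WT, while Pdgfra, a growth factor receptor of fibroblasts, read -4.69, -3.32 and -6.28 in Tg and -5.69, -4.83 and -7.56 in WT. The 8 leukocyte markers summed to 13.5 to 17.3 in Tg and 10.6 to 21.6 in WT, of which 82.2% came from the 1 gene Cd68. Without it the sum was 1.45 to 2.85 in Tg and 1.37 to 5.56 in WT, with Ptprc between -2.14 and -1.93 in Tg and between -2.52 and -1.66 in WT. The part of any of these cells in the Notch values was not tested.

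Rbpj encodes the factor through which all 4 receptors act on DNA. The core letters of its binding motif, TGGGAA on either strand, were searched in the 250 bases before each annotated start, from RefSeq on build GRCm38.p6. Of the Notch members, 8 had such windows, 10 in all, and Rbpj was the 1 gene whose windows held the core. It was present in 21.6% of all 32851 windows. The window of the first listed Rbpj start is shown for that reason, at chr5:53590096-53590345 on the plus strand, with both matches in capitals, beginning 149 and 65 bases before the start:

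Rbpj: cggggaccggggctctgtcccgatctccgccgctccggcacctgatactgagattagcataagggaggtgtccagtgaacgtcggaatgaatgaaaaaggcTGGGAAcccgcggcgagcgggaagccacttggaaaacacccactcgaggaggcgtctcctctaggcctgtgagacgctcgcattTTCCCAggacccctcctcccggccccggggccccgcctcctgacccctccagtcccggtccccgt

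The second listed Rbpj start overlaps this stretch and shares 1 of the matches. A match of letters is not a bound site, and no binding was measured here.

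The brighter Rbpj probe read 3.08, 3.45 and 3.01 in Tg and 3.03, 3.85 and 3.44 in WT, a log2 fold change of -0.26 (SE 0.30, 95% interval -0.99 to 0.47, -0.47 within the shared slide, limma adjusted p = 0.988). Here WT replicates 1 and 3 lay inside the Tg range. The other probe had the same sign, at -0.53 (SE 0.31, -0.45 within the shared slide, limma adjusted p = 0.949), with -1.47, -0.90 and -0.60 in Tg and -0.31, -0.31 and -0.76 in WT. In this probe 1 WT array, replicate 3, fell inside the Tg range.

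The target genes Hes1 and Hey1 were followed as RNA levels, and Notch signalling itself was not measured. Hes1 stood at 3.16, 2.86 and 2.37 in Tg and at 2.98, 3.44 and 2.35 in WT. Replicate 3 was the lowest array in both genotypes, at nearly the same level, and its 2 arrays are those of the second row of the slide. The log2 fold change was -0.13 (SE 0.38, 95% interval -1.05 to 0.80, -0.10 within the shared slide, limma adjusted p = 1.00). Hes1 was the 1 member with replicate 3 lowest in both genotypes, and 0 members had it highest in both. Over all tested genes these shares were 17.0% and 17.6%.

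Hey1, the second target, read 2.13, 1.84 and 1.52 in Tg and 2.16, 2.12 and 2.56 in WT. The highest Tg array lay just above the lowest WT array, and the other 2 Tg arrays lay below all WT arrays. Means were 1.83 ± 0.30 in Tg and 2.28 ± 0.25 in WT (SD, n = 3 each), a log2 fold change of -0.45 (SE 0.27, 95% interval -1.11 to 0.22, -0.51 within the shared slide) that did not pass (limma, adjusted p = 0.953).

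The intervals show how far these samples limit a difference. In 3 of the 10 members, Notch2, Jag1 and Rbpj at their brighter probes, the 95% interval lay within a 2-fold change either way, as in 32.2% of all tested genes. In the other 7 a change of 2-fold or more in at least 1 direction lay inside the interval. The spread of replicates was above the median of genes of like brightness for Dll1 (pooled SD 1.49, median 0.67), Notch4 (0.96, median 0.53), Notch3 (0.91, median 0.65), Hes1 (0.48, median 0.31) and Rbpj (0.34, median 0.31), and below it for the other 5. A p that misses the threshold therefore does not show that the genotypes were alike.

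The rest of the pathway was read from a list of 56 genes, of which 54 were on the array with a matched accession and 52 were tested. None was called in either direction, 25 had positive and 27 negative log2 fold changes, and the median was -0.02. At an unadjusted p under 0.05 limma counted 2 of the 52, against 5.41% of all tested genes, and the genotypes did not overlap in 5 of the 52 (9.62%), against 10.5% of all tested genes. For each role the gene of smallest p is given, none of which passed.

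Of the 10 genes listed under receptor inhibition and turnover, 9 were positive, with a median log2 fold change of 0.21. Over all tested genes 51.4% were negative. The listing is by role in the pathway, and not each of these genes need restrain the receptor in these cells. Numbl, the paralogue of the Notch inhibitor Numb, read 1.18, 0.90 and 0.13 in Tg against -0.92, -0.36 and -1.84 in WT. All Tg arrays lay above all WT arrays, and replicate 3 was the lowest of each genotype. The log2 fold change of 1.77 (SE 0.48, 1.83 within the shared slide) had the smallest p of the 52 genes and did not pass (limma, adjusted p = 0.699).

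In the cleavage machinery, 6 of 8 tested genes were negative (median -0.16). Aph1a, a subunit of gamma-secretase, read 0.43, 1.45 and 1.05 in Tg and 1.90, 1.89 and 1.56 in WT (log2 fold change -0.81, SE 0.33, -0.75 within the shared slide, limma adjusted p = 0.914). The genotypes did not overlap at this probe, but the other Aph1a probe gave 0.30 (SE 0.38, 0.17 within the shared slide), with overlap. Among the 7 nuclear co-activators, 6 were negative (median -0.19). Snw1, a protein of the RBPJ complex and of the spliceosome, read 0.22, 0.75 and 0.26 in Tg and 1.00, 1.32 and 0.72 in WT (log2 fold change -0.60, SE 0.28, -0.61 within the shared slide, limma adjusted p = 0.931). The lowest WT array lay just below the highest Tg array.

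The 8 co-repressors had 5 negative and 3 positive values (median -0.06). Ctbp1, a co-repressor of many factors, read -0.13, 0.26 and 0.43 in Tg and 0.56, 0.67 and 0.79 in WT, without overlap (log2 fold change -0.49, SE 0.24, -0.54 within the shared slide, limma adjusted p = 0.935). Tle1, a Groucho-type partner of the HES repressors chosen after its values were seen, was negative at 4 of its 4 probes, at -0.48 (SE 0.35), -0.77 (SE 0.36), -1.40 (SE 0.50) and -1.43 (SE 0.32), none of them called. Within the shared slide these were -0.54, -0.53, -1.01 and -1.26. The other HES and HEY factors split evenly, 3 positive and 3 negative. Hes3, a repressor known from the nervous system, had the smallest p, at 2.18 (SE 1.03, 1.82 within the shared slide, limma adjusted p = 0.932), but was above background on only 2 of 3 Tg arrays and 1 of 3 WT arrays. It was 0.68 with normexp background correction, and 1.41 to 3.08 with 1 array left out at a time (lowest without Tg replicate 1, highest without Tg replicate 3).

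Of the other ligands, Dlk1, a non-canonical ligand, had 0.25 (SE 0.26, 0.20 within the shared slide). Of the enzymes that add sugars to the receptor, Pofut1, which adds fucose, had -0.73 (SE 0.75, -1.10 within the shared slide), and was -0.10 without WT replicate 2 and -0.11 without Tg replicate 3. The other Pofut1 probe gave -0.13 (SE 0.81), with the opposite sign, 0.53, within the shared slide. Of the ligases that drive ligand endocytosis, Neurl1a had 0.70 (SE 0.67, 0.62 within the shared slide), with Tg replicate 1 at 0.48 and the other 5 arrays between -1.93 and -1.43, and was -0.06 without that array. Limma's adjusted p was 0.988 for these 3 genes, each at its brighter probe.

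**Figure D4:**
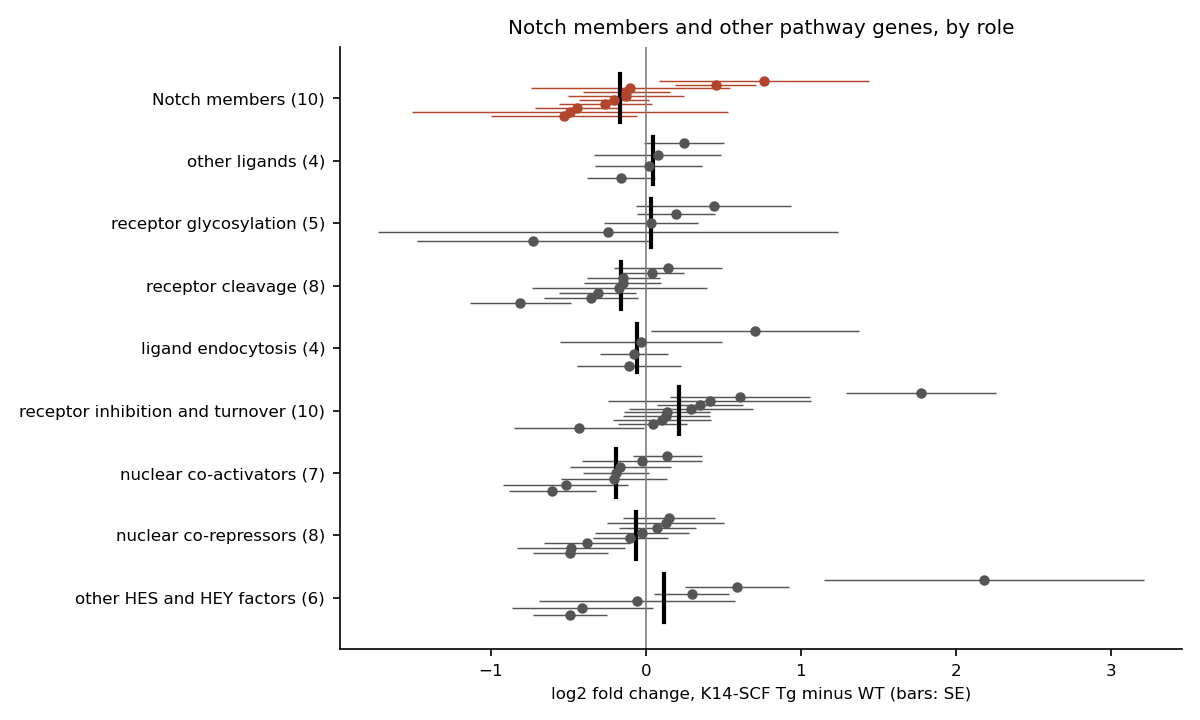
Log2 fold changes (K14-SCF Tg minus WT, x axis, bars SE) of the 10 Notch members (red, top row) and of 52 other pathway genes by role (grey), with the median of each role as a black line and the number of genes in brackets. Points of every role lie on both sides of 0, and the 2 points farthest to the right are Hes3 and Numbl.

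**Figure D5:**
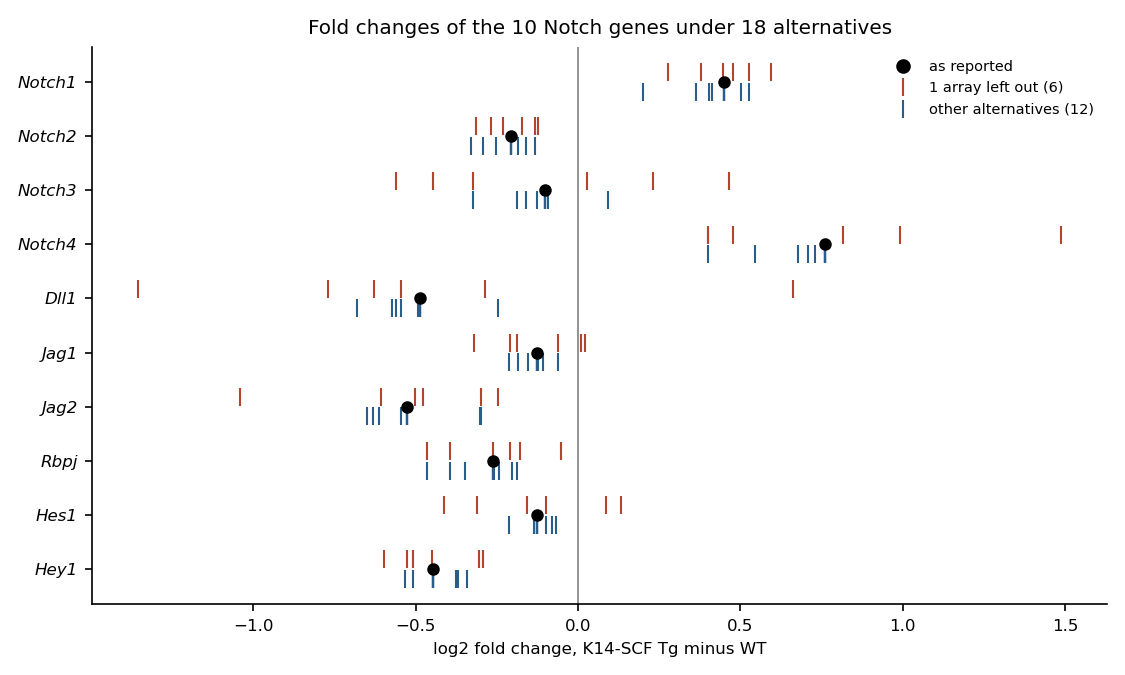
Log2 fold changes (K14-SCF Tg minus WT, x axis) of the 10 Notch genes as reported (black), with 1 array left out at a time (red, 6 each) and under the other 12 alternatives (blue). Notch1 and Notch4 stay right of 0, while Notch2, Jag2, Rbpj and Hey1 stay left of it, and the marks of Notch3, Dll1, Jag1 and Hes1 cross it.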

How the data were processed

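From total RNA of the sorted cells, amplified cDNA was labelled with Cy3 (per the labels' protocols) and hybridised to 1-colour Agilent mouse arrays (design build mm9, per the file headers). Per the file headers and the submitters' processing notes, Agilent Feature Extraction 10.7.1.1 made the deposited intensity values, which are background-subtracted within an array and not normalized between arrays. The flags per spot are 0 or 1, as deposited. The authors' deposited value table is a linear ratio: each column is the processed signal over 1 constant (1404.6 to 1678.0 by array), near the 75th percentile.

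Spots of a probe were averaged on the log2 scale without outliers, and each array's 75th percentile over non-control probes was subtracted. A probe counted as above background if any spot was flagged so. Probes above background on at least 3 of 6 arrays were tested with limma 3.58.1 in R 4.3.3 (2-sided, no covariates). Symbols came from a RefSeq table of GRCm38.p6 (28331 of the 29786 probes with a RefSeq accession matched). A gene was read from its tested probe of highest mean. On data simulated for K14-SCF Tg against WT over 47726 probes, limma recovered 0% of the genes changed 2-fold, 4.4% of those changed 4-fold, 43.6% at 8-fold and 72% at 16-fold. Genes of all these sizes were changed in the same draws, 250 of each size over all draws. Noise was normal and independent between probes, and false calls averaged 2 per draw. Recovery depends on how many genes change, so these shares hold for that setting alone. All members were named; of each pathway role, the gene of smallest p; of each marker list, set defining genes. Members and lists were chosen with earlier results of these data known. Pathway genes without a matched accession were not analysed here. The alternatives were other background corrections (normexp on median signals, as the files used hold no mean spot signal), normalizations, filters, slide, slide row and replicate blocks, and each array left out. The result of 1 marker list is not reported here.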

Additional observations from a re-analysis of the deposited data

How the results depend on the processing

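Across 18 alternative settings, none of the 180 recomputed log2 fold changes of the 10 Notch genes was called, and 9 had the opposite sign. Some could not turn: other filters, a trended and robust variance, the slide row and the replicate block left these fold changes unchanged. The slide block gave the same values as leaving out WT replicate 1. Notch1, Notch2, Notch4, Jag2, Rbpj and Hey1 kept their sign throughout, but not their size: Notch1 was 0.28 without Tg replicate 3 and 0.20 as the mean of its probes, and Rbpj was -0.053 without WT replicate 2. Leaving out 1 array at a time moved Notch3 between -0.56 and 0.47, Dll1 between -1.35 and 0.66, Jag1 between -0.32 and 0.022, Hes1 between -0.41 and 0.13 and Neurl1a between -0.060 and 1.11. The sign turned for Notch3 without WT replicate 3 (0.47) or Tg replicates 1 (0.23) or 3 (0.03), for Jag1 without WT replicate 2 (0.01) or Tg replicate 1 (0.022), for Hes1 without WT replicate 2 (0.13) or Tg replicate 3 (0.08), and for Dll1 without Tg replicate 2 (0.66). With array weights Notch3 was 0.093. These turns came with fewer or reweighted samples, and the cause was not tested further. The count of genes called over the whole array, 1 as reported, was also 1 with array weights, with dim probes kept, with the deposited values, and with quantile or median scaling, and 0 in all others, including 0 to 0 with an array left out. With the replicate block Notch1 was 0.45 (SE 0.27), Hey1 -0.45 (SE 0.31) and Numbl 1.77 (SE 0.28), the count of genes called was 0, and no Notch or pathway gene was called. Whether replicate numbers pair the arrays was not settled. Deviations of same-numbered arrays correlated at 0.02, 0.05 and 0.13 for replicates 1 to 3, and those of differently numbered arrays at -0.10 to 0.06. The arrays of replicate 3 also share the second slide row, so a pairing and a row effect cannot be told apart there. With 3 arrays a genotype, changes of a few fold mostly escaped detection in the simulated data, and Dll1, Notch4 and Notch3 varied most between replicates.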
